A study of Bos taurus with 16 samples.

Results

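Transcripts of the PPARGC1A coactivator family and of its estrogen-related receptor partners were followed in 2 muscles, round and sirloin, of Hanwoo calves at birth. The set held 9 of the 34109 listed genes: the coactivators PPARGC1A, PPARGC1B and PPRC1, the receptors ESRRA, ESRRB and ESRRG, the transcription factors NRF1 and TFAM, and the muscle regulator PERM1. PPARGC1A was chosen by its diet difference in these same libraries, and the others because they are known to work with it, so the diet values of the 9 genes are given as a description without a test. The 9 genes were found by gene symbol and NCBI gene ID, and each had counts in all 16 libraries, with a minimum of 23.

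The cows were Hanwoo, a Korean beef breed, and the labels name no genotype or further treatment. The study names the diet of the 4 control cows standard (100%) and that of the 4 treated cows overnutrition (150%), the latter given in mid to late pregnancy. These percentages are its names for the feeding levels, and not measured shares of a requirement. By the study's methods their 8 calves were male and were sampled at birth before taking colostrum. Each calf gave 1 round and 1 sirloin library, and the replicate number of the labels names the calf within its diet.

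Total counts ranged from 44473011 to 72446933 per library. The round and sirloin libraries of control replicate 2 were the deepest of the 16, at 72446933 and 72165291 counts against at most 67119683 in the others, and their TPM values, which scale reads by gene length and library total, summed to 1000000 against 999756 to 999858 elsewhere. Treated sirloin replicate 4 held adipocyte transcripts, with a summed TPM of the 6 adipocyte markers of 2051 against at most 4.46 in every other library. Its UCP1, the uncoupling protein of brown fat, was at 1098 TPM against at most 2.71 in the other 15 libraries, and its ADIPOQ, an adipocyte hormone, at 678 TPM against at most 1.13. All 6 skeletal muscle markers were detected in each group, with a summed TPM of 37167 to 72522. The 7 slow fibre markers summed to 72371 TPM in 1 treated round library and to at most 29146 TPM in every sirloin library. Red blood cell markers were at 12.2 to 36.3 TPM in the treated and 2.91 to 18.0 TPM in the control libraries. SLC4A1 was at 0 in every group, and HBM in every group but treated sirloin. Of the 5 cardiac muscle markers, NPPA and NPPB were at 0 in all groups. The other 3, MYH6, TNNI3 and TNNT2, reached 1 TPM in each group, and the list summed to 70.6 to 566 TPM over the libraries.

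PPARGC1A encodes PGC-1 alpha, a coactivator that binds transcription factors on DNA and raises transcription of genes for mitochondria and fuel oxidation. PPARGC1B encodes a close relative with overlapping targets, and PPRC1 a more distant relative linked to growth signals. The estrogen-related receptors bind the promoters of oxidative metabolism genes without a known natural hormone and depend on these coactivators. NRF1 activates nuclear genes of the respiratory chain, and TFAM packages mitochondrial DNA and acts as a factor in its transcription. PERM1 is induced by PGC-1 and the receptors in striated muscle. In skeletal muscle the pathway is known for supporting oxidative, fatigue-resistant fibres.

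Levels were first compared between genes in the authors' TPM. The receptor ESRRA was the highest of the 9, with a median of 172 TPM over the 16 libraries and a range of 99.1 to 240.9 TPM. PERM1 followed at a median of 121 TPM, and ESRRA exceeded it in 13 of the 16 libraries. PPARGC1A had a median of 17.2 TPM but the widest range in TPM of the coactivators, from 6.21 to 185 TPM, a 29.8-fold spread. PERM1 exceeded PPARGC1A in 12 of 16 libraries.

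PPRC1 had a median of 13.7 TPM and TFAM of 12.2 TPM, and the order of these neighbours held in 9 of 16 libraries. PPARGC1A was above PPRC1 in 11 libraries, so the middle of the order was not separated beyond the spread between libraries. PPARGC1B had a median of 6.60 TPM and was below TFAM in 15 of 16 libraries. NRF1 was at 4.39 TPM, ESRRG at 3.06 TPM and ESRRB at 2.10 TPM by median. PPARGC1B was above NRF1 in 9 libraries, NRF1 above ESRRG in 8, and ESRRG above ESRRB in 13. ESRRG had the widest relative range of the 9 genes, from 0.352 to 31.0 TPM.

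For the comparisons between samples, counts were scaled to CPM, counts per 1000000 of the library, with TMM factors, which adjust for composition and ranged from 0.862 to 1.12. Bulk tissue cannot separate less RNA per cell from fewer cells of a type. In control round muscle, PPARGC1A was at 125, 34.9, 540.1 and 409.8 CPM in replicates 1 to 4. In treated round muscle it was at 23.9, 56.3, 45.5 and 41.8 CPM. Control replicates 1, 3 and 4 lay above all treated calves, control replicate 2 lay among them, and the groups therefore overlapped.

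In sirloin muscle, PPARGC1A was at 734, 43.5, 136 and 517 CPM in the control calves. The treated calves were at 36.5, 29.4, 63.6 and 62.8 CPM. The same 3 control calves were above every treated calf in sirloin as in round muscle, and control replicate 2 was again within the treated range.

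The group means of PPARGC1A were 277 ± 237 CPM in the control and 41.9 ± 13.5 CPM in the treated round muscle (SD, n = 4 each). In sirloin muscle they were 358 ± 324 and 48.1 ± 17.7 CPM. The log2 fold change of treated over control was -2.71 with a standard error (SE) of 0.665 in round muscle, and -2.90 with an SE of 0.718 in sirloin muscle. These correspond to 6.54-fold and 7.45-fold lower values in the treated calves, in the contrast that selected the gene. The spread was itself unequal, since the highest control round library exceeded the lowest 15.5-fold and the highest treated round library exceeded the lowest 2.35-fold. In sirloin muscle these ratios were 16.9 and 2.16.

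Without control replicate 2, whose libraries stood apart in depth and TPM sum, the log2 fold change of PPARGC1A was -3.12 in round and -3.28 in sirloin muscle. Over the 8 ways of leaving out a calf it ranged from -3.12 to -2.17 in round and from -3.28 to -2.27 in sirloin muscle. Without treated replicate 4, the calf whose sirloin library held adipocyte transcripts, the values were -2.75 and -3.04.

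**Figure D1:**
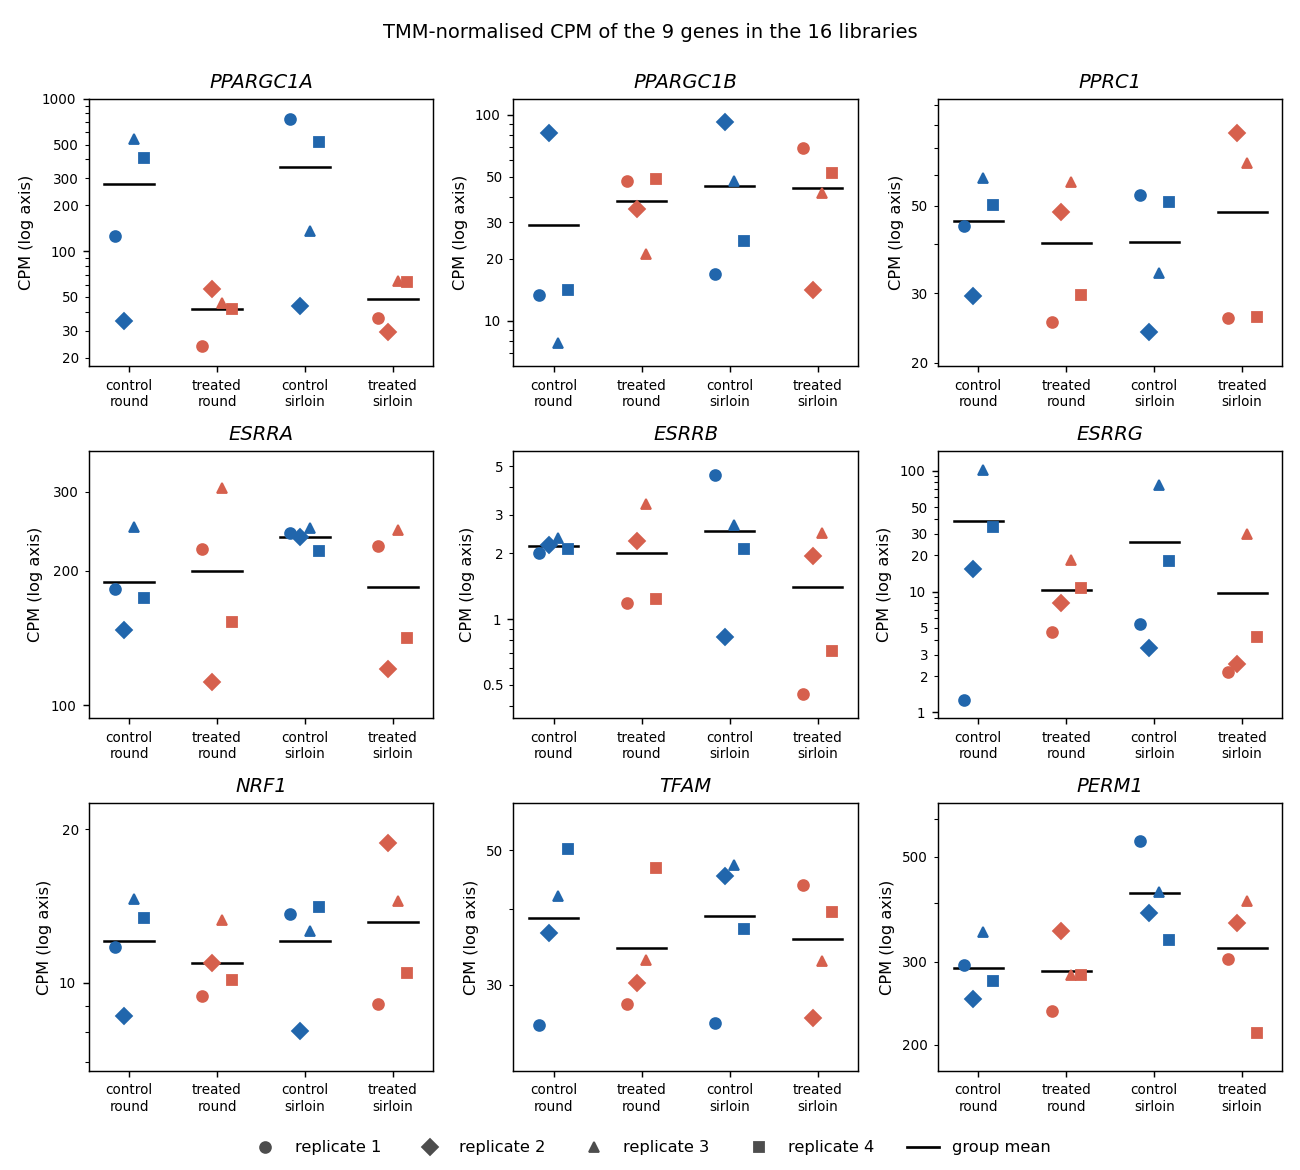
TMM-normalised CPM of the 9 genes on log axes, with a point for each library, blue for control and red for treated calves, a marker shape for each replicate number and a bar at the mean of the 4 calves. Of the PPARGC1A values, 3 of 4 controls lie above all treated calves in each muscle while control replicate 2 lies at 34.9 and 43.5 CPM, and the 2 diets overlap for every gene.

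PPARGC1B showed the reverse picture among the control calves. Its control round values were 13.3, 81.7, 7.82 and 14.0 CPM, and its treated round values 47.5, 34.8, 21.0 and 48.9 CPM. The calf with the lowest PPARGC1A among the controls, replicate 2, had the highest PPARGC1B, and the other 3 controls lay below all treated calves. In sirloin muscle the controls were at 16.9, 91.9, 47.6 and 24.4 CPM and the treated calves at 69.1, 14.0, 41.9 and 51.8 CPM. Control replicate 2 was again the highest, and the 2 diets overlapped.

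The log2 fold change of PPARGC1B between the diets was 0.40 (SE 0.629) in round and -0.04 (SE 0.549) in sirloin muscle. A single calf set the round value, which was 1.70 without control replicate 2. In sirloin muscle the value without that calf was 0.57.

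The balance of the coactivators also varied between calves. The TPM ratio of PPARGC1A to PPARGC1B was 17.8, 0.717, 129 and 49.9 in the control round libraries and 0.844 to 3.76 in the treated ones. In sirloin muscle it was 77.3, 0.794, 4.83 and 36.3 in the controls and 0.894 to 3.54 in the treated libraries. Control replicate 2 had the lowest ratio of all calves in each muscle, and the other 3 controls had the 3 highest. PPARGC1A made up 66.3% to 90.7% of the summed TPM of the 3 coactivators in those 3 controls, 29.2% and 34.4% in control replicate 2, and 22.0% to 50.1% in the treated calves.

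PPRC1 was at 44.5, 29.5, 58.9 and 50.1 CPM in the control and 25.4, 48.3, 57.4 and 29.7 CPM in the treated round muscle. In sirloin muscle it was at 53.4, 23.9, 33.7 and 51.0 CPM in the control and 25.9, 76.7, 64.3 and 26.1 CPM in the treated calves. Treated replicates 2 and 3 were high and treated replicates 1 and 4 low in both muscles, and the diets overlapped. The log2 fold changes were -0.17 (SE 0.305) in round and 0.25 (SE 0.398) in sirloin muscle, each smaller than its SE.

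Of the receptors, ESRRA was at 182, 147, 250.3 and 174 CPM in control round muscle and at 224, 113, 306 and 154 CPM in the treated round muscle. In control sirloin muscle it was at 242, 238, 249 and 221 CPM, a coefficient of variation of 4.99%, the lowest of any gene and group here. The treated sirloin values were 227, 121, 246 and 141 CPM. Treated replicates 2 and 4 were low in both muscles, replicates 1 and 3 were high, and the diets overlapped. The log2 fold changes were 0.10 (SE 0.317) in round and -0.37 (SE 0.251) in sirloin muscle.

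ESRRG, the most variable of the receptors, was at 1.28, 15.4, 102 and 34.3 CPM in control round muscle. The treated round values were 4.65, 8.03, 18.1 and 10.6 CPM. In sirloin muscle the controls were at 5.40, 3.40, 75.8 and 17.8 CPM and the treated calves at 2.17, 2.50, 30.1 and 4.18 CPM. Replicate 3 was the highest calf of each diet in each muscle.

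The diet log2 fold change of ESRRG was -1.87 (SE 0.873) in round and -1.39 (SE 1.06) in sirloin muscle. Control replicate 3 carried much of both, since the values without it were -0.70 and 0.15. Without treated replicate 3 the sirloin value was -3.13.

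ESRRB, the least abundant of the 9 genes by median TPM, was at 2.00, 2.18, 2.36 and 2.10 CPM in the control and 1.18, 2.26, 3.35 and 1.23 CPM in the treated round muscle. In sirloin muscle it was at 4.55, 0.831, 2.68 and 2.10 CPM in the control and 0.453, 1.94, 2.47 and 0.718 CPM in the treated calves. Its log2 fold changes were -0.08 (SE 0.405) and -0.86 (SE 0.617). These values rested on 23 to 232 counts per library, the thinnest coverage of the set.

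NRF1 was at 11.8, 8.59, 14.6 and 13.4 CPM in the control and 9.43, 10.9, 13.3 and 10.1 CPM in the treated round muscle. In sirloin muscle it was at 13.7, 8.06, 12.6 and 14.1 CPM in the control and 9.06, 18.8, 14.4 and 10.4 CPM in the treated calves. Control replicate 2 was the lowest calf in each muscle. The log2 fold changes were -0.12 (SE 0.251) and 0.12 (SE 0.285).

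TFAM was at 25.7, 36.5, 42.0 and 50.3 CPM in the control and 27.9, 30.2, 33.0 and 46.8 CPM in the treated round muscle. In sirloin muscle it was at 25.9, 45.4, 47.3 and 37.1 CPM in the control and 43.8, 26.5, 32.8 and 39.5 CPM in the treated calves. Control replicate 1 was the lowest in each muscle and the diets overlapped throughout. The log2 fold changes were -0.14 (SE 0.262) and -0.13 (SE 0.244).

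PERM1 was at 295, 250.4, 346 and 273 CPM in the control and 236, 348, 280.3 and 281 CPM in the treated round muscle. In sirloin muscle it was at 539, 379.6, 422 and 332 CPM in the control and 304, 363, 402 and 212 CPM in the treated calves. The round groups had nearly the same mean, at 291 ± 41.0 and 286 ± 46.5 CPM (SD, n = 4). The sirloin means were 418 ± 88.3 and 320.3 ± 82.5 CPM, with overlap, and the log2 fold changes were -0.00 (SE 0.225) in round and -0.38 (SE 0.247) in sirloin muscle.

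Across all genes tested, edgeR's quasi-likelihood test at a Benjamini-Hochberg adjusted p under 0.05 called 0.0185% of genes between the diets in round muscle and 0.00918% in sirloin muscle, and none of the 9 genes in either. At an unadjusted p under 0.05 these shares were 4.41% and 3.91%, with PPARGC1A as the 1 gene of 9 in each muscle. DESeq2 called 0.256% and 0.0756% of the genes it tested, with PPARGC1A again as the 1 gene of 9 in each. Because this contrast chose PPARGC1A, nothing is read from these counts.

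**Figure D2:**
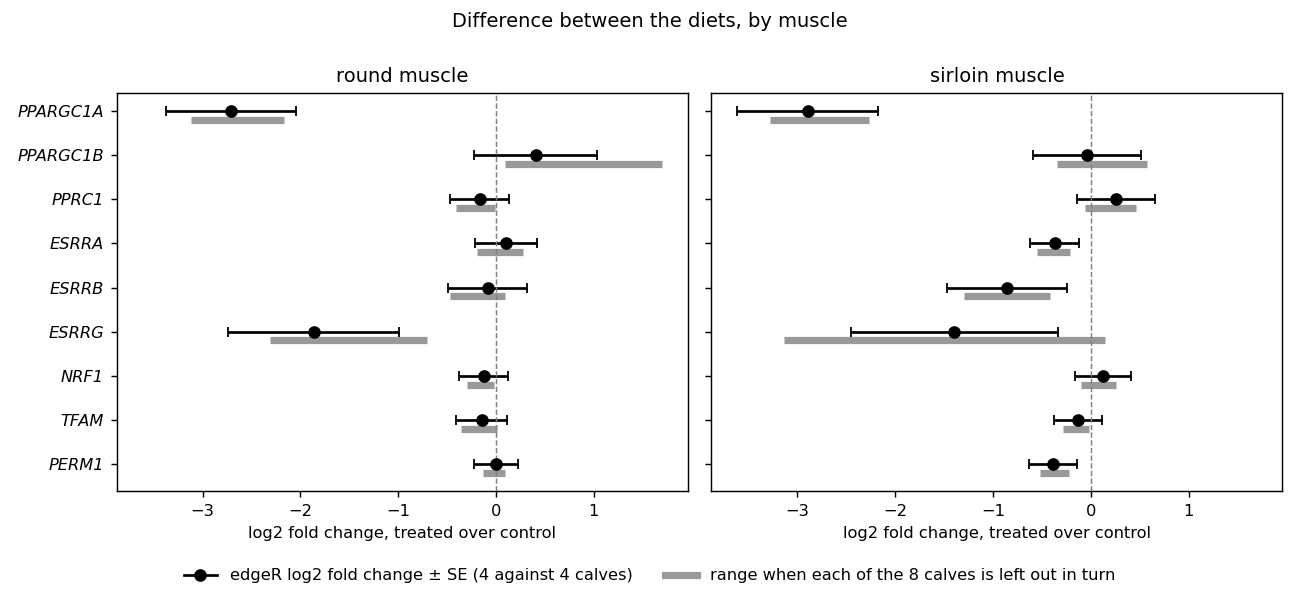
Log2 fold change of treated over control for the 9 genes in round (left) and sirloin muscle (right), as points with the standard error from edgeR (4 against 4 calves), with grey bars for the range when each of the 8 calves is left out in turn. PPARGC1A lies at -2.71 and -2.90 with grey bars below 0, and the grey bar of ESRRG spans -3.13 to 0.15 in sirloin muscle.

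The round and sirloin muscles of each calf were compared next, a contrast other than the diet difference by which PPARGC1A was chosen. The genes and the lists below were still chosen with earlier results of these data known. The fit held a term for each calf, and edgeR called 0.533% of 22877 genes but none of the 9. DESeq2 called 5.57% of its genes and also none of the 9. At an unadjusted p under 0.05, edgeR counted 11.2% of all genes and 1 of the 9, PERM1.

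PERM1 was higher in sirloin than in round muscle in 7 of 8 calves, with differences in log2 CPM of 0.87, 0.60, 0.28 and 0.28 in the controls and 0.37, 0.06, 0.52 and -0.41 in the treated calves. The calf with the opposite sign was treated replicate 4, whose sirloin library held the adipocyte transcripts. The log2 fold change was 0.32 (SE 0.134) and did not pass the threshold (edgeR adjusted p = 0.375). Over the 8 calves the exact two-sided sign-flip permutation test gave p = 0.0625, and 0.492 after adjustment over the 9 genes, where the smallest p it could give was 0.00781. Without treated replicate 4 the log2 fold change was 0.43.

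PPARGC1B was likewise higher in sirloin muscle in 7 of 8 calves, by 0.51 on the log2 scale (SE 0.302, edgeR adjusted p = 0.608). ESRRG was higher in sirloin muscle in 2 of 8 calves, with a log2 fold change of -0.68 (SE 0.380, edgeR adjusted p = 0.582). Neither passed, and the differences of single calves ran from -1.31 to 2.60 for PPARGC1B and from -2.17 to 2.05 for ESRRG.

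PPARGC1A differed between the muscles in opposite directions in different calves. Control replicate 1 had 2.55 more on the log2 scale in sirloin muscle, from 125 to 734 CPM, while control replicate 3 had a difference of -1.99, from 540.1 to 136 CPM. Control replicates 2 and 4 differed by 0.31 and 0.34. The treated calves differed by 0.61, -0.94, 0.48 and 0.59. The mean over the 8 calves was 0.24 with an SD of 1.31, and 6 of the 8 were higher in sirloin muscle. In control replicate 3, PPARGC1B moved the other way from PPARGC1A, with 2.60 more in sirloin muscle.

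PPRC1, ESRRA, NRF1 and TFAM had log2 fold changes between the muscles of -0.02 to 0.14, with SEs of 0.120 to 0.139. ESRRB had -0.34 (SE 0.266). The SD of calf means within a diet was set against the SD of a single library within its calf. This ratio was 1.87 for PPRC1, 1.82 for both ESRRA and ESRRG, 1.25 for PPARGC1A and 0.869 for PERM1. The mean of both muscles varies less than a single library, and the SD within calves kept any diet difference between the muscles. The ratio of PERM1 therefore does not show that its muscles differed more than its calves.

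**Figure D3:**
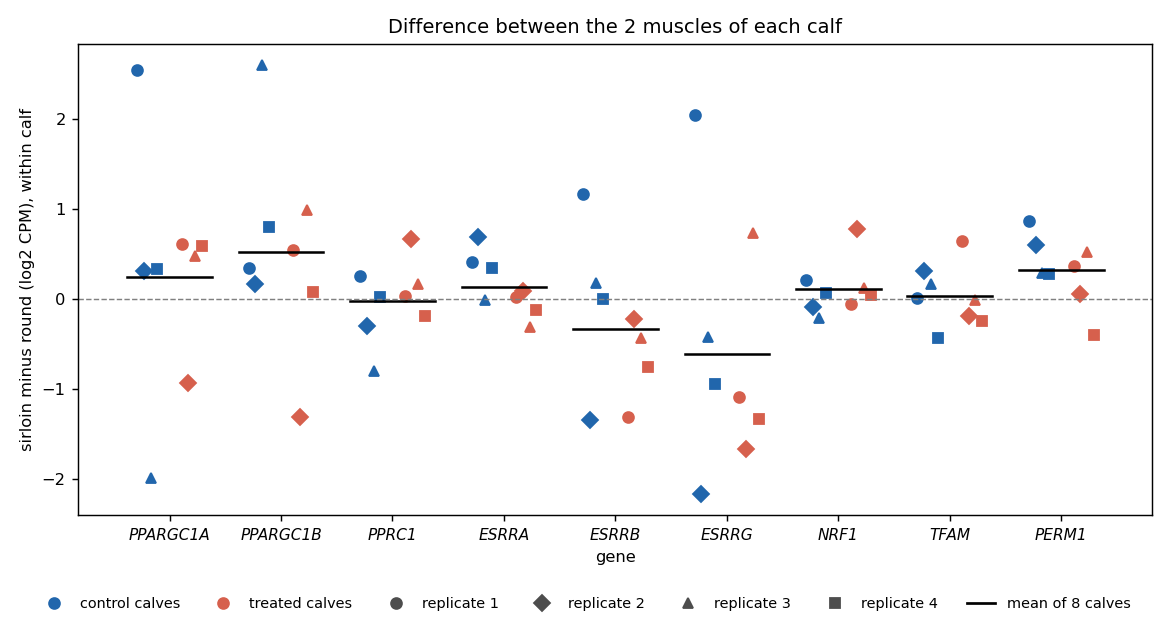
Sirloin minus round difference in log2 CPM within each of the 8 calves, for the 9 genes, in blue for control and red for treated calves, with a marker shape for each replicate number and a bar at the mean of the 8. PERM1 lies above 0 in 7 of 8 calves, and PPARGC1A runs from -1.99 in control replicate 3 to 2.55 in control replicate 1.

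Whether the diet difference itself differed between the muscles was tested with an interaction term in the fit with calf. None of the 9 genes was called, against 0.00437% of all genes by edgeR and 0.0177% by DESeq2. At an unadjusted p under 0.05, edgeR counted 3.78% of all genes and 0 of the 9. The lowest unadjusted p of the 9 was that of ESRRA, at 0.0628, with an estimate of -0.44 on the log2 scale (SE 0.214, edgeR adjusted p = 1). For PPARGC1A the estimate was -0.11 with an SE of 0.759, an interval wide enough to hold a large difference in either direction.

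Co-variation of PPARGC1A with its 8 partners was taken over the 8 calves of a muscle after the mean of each diet was removed, so that the diet contrast played no part. The values were log2 CPM (prior count 2), and the two-sided exact permutation test ran over all 576 orders of calves within diets, with adjustment over 16 tests. None of the 16 correlations passed, with a lowest adjusted p of 0.0556, where the smallest p the test could give was 0.00174.

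In round muscle PPARGC1A ran with PPRC1 at Pearson's r = 0.741 and Spearman's rho = 0.810 (exact permutation p = 0.00347 and 0.0139, adjusted p = 0.0556 and 0.111). It ran with NRF1 at r = 0.890 and rho = 0.905 (exact permutation p = 0.0104 and 0.0122, adjusted p = 0.0833 and 0.111). Against PPARGC1B the sign was negative, with r = -0.863 and rho = -0.690 (exact permutation p = 0.0278 and 0.102, adjusted p = 0.148 and 0.379). Without the 2 calves whose PPARGC1A deviated farthest from the median, control replicates 2 and 3, r was 0.565 for PPRC1, 0.613 for NRF1 and -0.246 for PPARGC1B, so the relation with PPARGC1B rested on those calves. Without control replicate 2 alone r was 0.60 for PPRC1, 0.70 for NRF1 and -0.48 for PPARGC1B.

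In sirloin muscle the 3 relations had the same signs and smaller sizes. For PPRC1, r was 0.464 and rho 0.286 (exact permutation p = 0.182 and 0.330, adjusted p = 0.417 and 0.440). For NRF1, r was 0.469 and rho 0.50 (exact permutation p = 0.226 and 0.260, adjusted p = 0.417 and 0.379). For PPARGC1B, r was -0.593 and rho -0.524 (exact permutation p = 0.175 and 0.240, adjusted p = 0.417 and 0.379). Without the 2 farthest calves, control replicates 1 and 2, r was 0.0902 for PPRC1, -0.0669 for NRF1 and -0.00689 for PPARGC1B, so all 3 sirloin relations rested on those calves. Without control replicate 2 alone these were 0.185, -0.0340 and -0.241. The sirloin library of treated replicate 2 was the lowest in PPARGC1A and PPARGC1B and the highest in PPRC1 and NRF1 of its diet. It thus ran against the negative relation with PPARGC1B, and leaving that calf out gave r = -0.989 for PPARGC1B in sirloin muscle. In that setting 3 of 16 relations passed, those with PPARGC1B in sirloin and with PPRC1 and NRF1 in round muscle. Each had an adjusted exact permutation p = 0.0370. Of the settings that left out a calf, this one had the most passing relations. Fewer orders of calves were possible in it, and nothing is read from that count.

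Which partners ran closest to PPARGC1A differed between the muscles and with the calves included, and the receptors and remaining partners are given here. For ESRRA, r was 0.236 in round and 0.0583 in sirloin muscle, for ESRRB 0.224 and 0.554, and for ESRRG 0.532 and 0.207. For PERM1, r was 0.659 in round and 0.115 in sirloin muscle. For TFAM it was 0.434 and -0.548, of opposite sign in the 2 muscles, and the difference between them was not tested. The adjusted exact permutation p of these 10 was between 0.201 and 0.790. Without the 2 farthest calves, r in round muscle was 0.886 for ESRRG, 0.724 for TFAM and 0.421 for ESRRB. It was 0.399 for PERM1 and -0.301 for ESRRA, beside 0.565 for PPRC1 and 0.613 for NRF1. In sirloin muscle the receptors, TFAM and PERM1 then ran from -0.433 for PERM1 to 0.0981 for ESRRA.

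PPARGC1A and PPARGC1B also followed the depth of the library. Over the 16 libraries, after the 4 group means were removed, r with log2 total count was -0.587 for PPARGC1A, 0.615 for PPARGC1B, -0.434 for NRF1 and -0.375 for PPRC1. With the TMM factor, r was -0.678, 0.626, -0.540 and -0.474 in the same order. These are descriptions over libraries that share calves and include the deep control replicate 2. The part of depth in the relations among the genes was not tested.

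**Figure D4:**
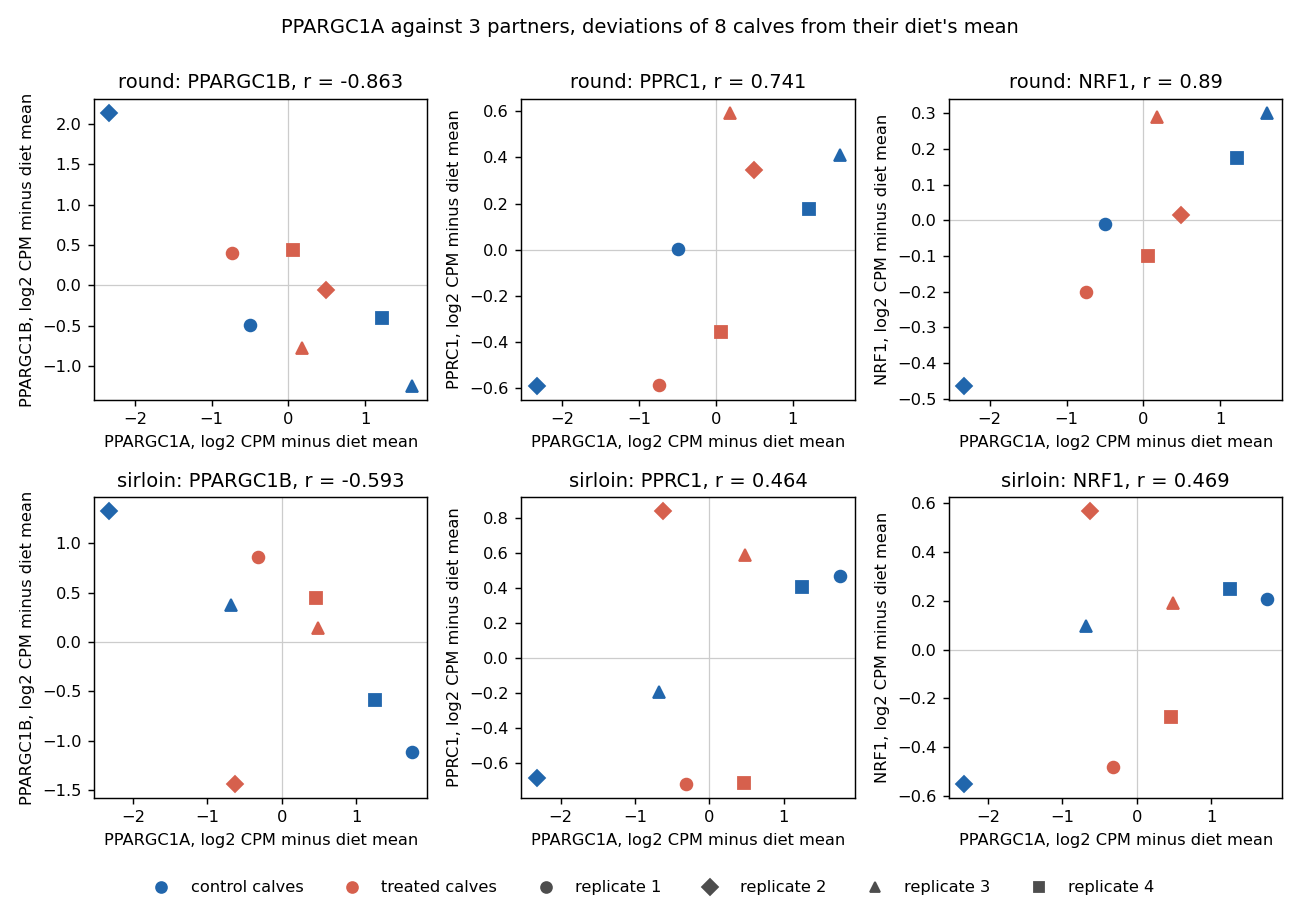
Deviation of PPARGC1A from its diet's mean (log2 CPM, horizontal) against that of PPARGC1B, PPRC1 and NRF1 (vertical) in round (top) and sirloin muscle (bottom), for 4 control calves in blue and 4 treated calves in red, with a marker shape for each replicate number. Control replicate 2 lies at the far left in every panel, with r of -0.863, 0.741 and 0.890 in round muscle.

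The correlations among all genes of the set were chosen for description after the first ones had been seen. They covered 36 pairs in each muscle, the pairs with PPARGC1A given above included. PPRC1 and NRF1 ran together at r = 0.905 in round and 0.943 in sirloin muscle. PPARGC1B ran against NRF1 at -0.950 and -0.903, and against PPRC1 at -0.814 and -0.866. Each of these 6 had an adjusted exact permutation p of 0.0625 over 72 tests, which did not pass, and a single pair at the smallest p the test could give would reach 0.125. PPARGC1B and TFAM had r = 0.896 in sirloin but -0.02 in round muscle.

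Deviations of a calf from its diet were also set against each other across its 2 muscles. ESRRA had r = 0.890 and rho = 0.905 (exact permutation p = 0.0191 and 0.0208, adjusted p = 0.172 and 0.188 over 9 genes), and 0.657 without the 2 farthest calves. PPRC1 had r = 0.816, NRF1 0.718 and ESRRG 0.710, while PPARGC1A had 0.455 and PERM1 0.316. For PPARGC1A rho was 0.0952, and r without the 2 farthest calves was -0.248. Without those calves r was 0.634 for PPRC1, 0.602 for NRF1, 0.922 for ESRRG and 0.206 for PERM1, with the farthest taken for each gene. None passed after adjustment.

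**Figure D5:**
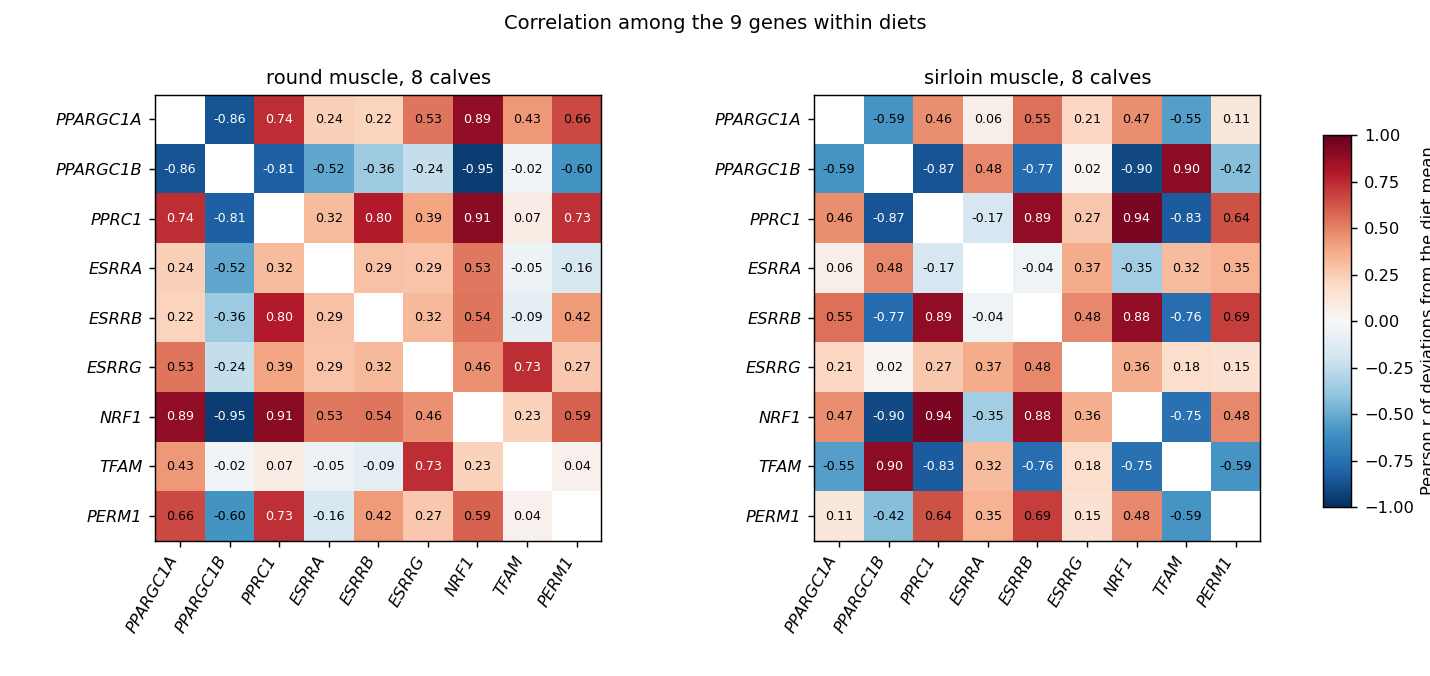
Pearson's r between every pair of the 9 genes over 8 calves in round (left) and sirloin muscle (right), from log2 CPM after the mean of each diet was removed, with red for positive and blue for negative values. The row of PPARGC1B is blue against PPRC1 and NRF1 in both muscles, at -0.81 and -0.95 in round and -0.87 and -0.90 in sirloin muscle.

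Genes upstream of PPARGC1A were read from a list of 35 kinases, transcription factors and modifying enzymes. Between the diets edgeR called 0 of 35 in either muscle, and at an unadjusted p under 0.05 it counted 2 in round and 6 in sirloin muscle, all lower in the treated calves, beside 4.41% and 3.91% of all genes. The sirloin count was 3 without control replicate 1, 3 or 4. The list's median log2 fold change was -0.04 in round and -0.18 in sirloin muscle, beside 0.02 and 0.03 for all genes. CREM, a cAMP-responsive transcription factor, had means of 44.1 ± 30.4 CPM in the control and 14.3 ± 7.43 CPM in the treated round muscle (SD, n = 4), with a log2 fold change of -1.61 (SE 0.567, edgeR adjusted p = 0.864). In sirloin muscle its value was -1.59 (SE 0.586, edgeR adjusted p = 0.876).

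MAP2K6, a kinase that activates p38, was the 1 list gene called between the diets by DESeq2, in sirloin muscle. Its means there were 42.9 ± 3.16 CPM in the control and 20.9 ± 3.98 CPM in the treated calves (SD, n = 4), with a log2 fold change of -1.04 (SE 0.202). The DESeq2 adjusted p was 0.00827 whereas the edgeR adjusted p was 0.876, and edgeR gave 0.822 to 0.9995 over 13 alternatives. CAMK4, a calcium-dependent kinase, had -1.06 (SE 0.434) in sirloin muscle. SIRT1, a deacetylase of PGC-1 alpha, had -0.76 (SE 0.364) and TWIST1, an inhibitor of it, -1.42 (SE 0.512) in round muscle, and none of these 3 passed in edgeR (adjusted p of 0.864 to 0.876).

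The 10 immediate early genes, which respond to stimulation within a short time, had medians of -0.33 in round and 0.15 in sirloin muscle between the diets. Of these, 0 were called by edgeR or DESeq2. In each muscle 1 was at an unadjusted p under 0.05, beside 4.41% and 3.91% of all genes. Treated replicate 4 set these medians, which were -1.39 and -1.02 without it. Its FOS, a subunit of the AP-1 transcription factor, was at 379 CPM in round and 436 CPM in sirloin muscle, against at most 73.2 CPM in every other library. NR4A3, a nuclear receptor of this class, had log2 fold changes of -1.96 (SE 0.917) in round and -2.65 (SE 1.28) in sirloin muscle, and neither passed in edgeR (adjusted p of 0.864 and 0.876). The part of this response in the values of PPARGC1A was not tested.

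Between the muscles edgeR called 0 of the 35 regulators. At an unadjusted p under 0.05, 5 were higher and 5 lower in sirloin muscle, beside 11.2% of all genes in either direction. DESeq2 called HDAC4, a repressor of MEF2 factors, with means of 23.4 ± 7.36 CPM in round and 50.7 ± 35.5 CPM in sirloin muscle (SD, n = 8). Its log2 fold change was 0.85 (SE 0.217), with a DESeq2 adjusted p of 0.00648 and an edgeR adjusted p of 0.113. MEF2C, a muscle transcription factor, had -0.46 (SE 0.177, edgeR adjusted p = 0.327).

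The second list held 20 receptors and cofactors that bind PGC-1 proteins, of which 19 were measured. Between the diets edgeR and DESeq2 called 0 of 19 in either muscle. At an unadjusted p under 0.05 edgeR counted 0 in round and 1 in sirloin muscle, beside 4.41% and 3.91% of all genes. That gene was PPARG, the fat cell receptor, at 1.67 ± 0.651 CPM in the control and 10.6 ± 18.6 CPM in the treated sirloin muscle (SD, n = 4), and without the library that held adipocyte transcripts the count was 0. RORA, a nuclear receptor, had -0.88 (SE 0.442, edgeR adjusted p = 0.864) in round and NR1D1, a clock receptor, -0.74 (SE 0.462, edgeR adjusted p = 0.876) in sirloin muscle.

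THRB, a thyroid hormone receptor, was the 1 gene of these lists that passed in edgeR between the muscles. It rose from 17.7 ± 5.85 CPM in round to 29.3 ± 7.26 CPM in sirloin muscle (SD, n = 8), with a log2 fold change of 0.75 (SE 0.146, edgeR adjusted p = 0.0426). The call was lost when any of 6 of the 8 calves was left out, namely any control calf or treated replicate 1 or 2, with adjusted p between 0.0178 and 0.141 over the 8. DESeq2 gave adjusted p values of 0.000225 for THRB and 0.0354 for RXRA, the common partner of nuclear receptors, whose log2 fold change was 0.42 (SE 0.126, edgeR adjusted p = 0.182). Of the 19 genes, 17 had a log2 fold change above 0, with a median of 0.11 beside 0.00 for all genes.

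Genes known to be driven by PPARGC1A and the receptors were read from a list of 35 enzymes, carriers and respiratory chain subunits. Between the diets edgeR and DESeq2 called 0 of 35 in either muscle. In round muscle 23 had a log2 fold change above 0 and 12 below, with a median of 0.14. There 0 genes were at an unadjusted p under 0.05, beside 4.41% of all genes. Without treated replicate 3 the round median was 0.00 with 18 above 0, and without control replicate 2 it was 0.03 with 21 above 0. In sirloin muscle 34 of 35 were below 0, with a median of -0.35 beside 0.03 for all genes. There 3 were at an unadjusted p under 0.05, beside 3.91% of all genes, or 9 without treated replicate 1.

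Those 3 in sirloin muscle were UCP3, a mitochondrial carrier of muscle, MB, the oxygen-binding myoglobin, and CKMT2, the mitochondrial creatine kinase. UCP3 had means of 262 ± 189.9 CPM in the control and 114 ± 18.2 CPM in the treated calves (SD, n = 4), a log2 fold change of -1.21 (SE 0.406). MB had 1485 ± 483 and 718 ± 450.3 CPM, a log2 fold change of -1.05 (SE 0.408). CKMT2 had 949.8 ± 96.0 and 564 ± 168 CPM, a log2 fold change of -0.76 (SE 0.249). None of the 3 passed in edgeR, each with an adjusted p of 0.876.

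The sirloin median of this list depended on treated replicate 2, without which it was -0.14 with 28 of 35 below 0. Without treated replicate 4 it was -0.34 with 33 below 0. In round muscle the largest values among list genes at a mean of at least 1 CPM were those of UCP3 at -0.98 (SE 0.812), PDK4, which restrains glucose oxidation, at -0.67 (SE 0.668), and LPL, which releases fatty acids from lipoproteins, at 0.51 (SE 0.517). The interaction of diet and muscle had a list median of -0.43, with 11 of 35 genes at an unadjusted p under 0.05, all more negative in sirloin muscle, beside 3.78% of all genes, and 0 called by edgeR or DESeq2. That count of 11 was 2 with no replicate block and 3 by DESeq2. It was 6 or 7 without control replicate 1, 2 or 4 or treated replicate 2 or 3. Without control replicate 3 it was 12, and without treated replicates 1 and 4 in turn 15 and 10.

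Muscle marker lists were set beside these values. The 6 skeletal muscle markers had a median log2 fold change of 0.13 in round muscle, with 4 above 0, and of -0.45 in sirloin muscle, with 0 above 0. Of the 7 slow fibre markers all were above 0 in round muscle, with a median of 0.86, or 0.35 without treated replicate 2. In round muscle 3 of the 7 were at an unadjusted p under 0.05, beside 4.41% of all genes, and 0 without treated replicate 2. In sirloin muscle 2 of the 7 were above 0 with a median of -0.21, and their interaction median was -0.97. In the interaction 4 of the 7 were at an unadjusted p under 0.05, beside 3.78% of all genes, and 1 without treated replicate 2. Neither edgeR nor DESeq2 called any of the 7 between the diets or in the interaction. The 6 measured fast fibre markers of 7 had medians of -0.23 in round and -0.31 in sirloin muscle, with 0 above 0 in either, and the round median was 0.06 without control replicate 1. The part of muscle content and fibre type in the target list's values was not tested.

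Between the muscles edgeR and DESeq2 called 0 of the 35 target genes. At an unadjusted p under 0.05, 1 was higher and 6 were lower in sirloin muscle, beside 11.2% of all genes in either direction. The list median was -0.19 beside 0.00 for all genes. VEGFA, a vascular growth factor, had -0.39 (SE 0.142) and CKMT2 -0.42 (SE 0.167), neither past the threshold (edgeR adjusted p of 0.289 and 0.343). LPL had 0.53 (SE 0.285, edgeR adjusted p = 0.559).

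The genes that keep and transcribe mitochondrial DNA, 14 besides TFAM, showed 0 calls between the diets or the muscles by edgeR and DESeq2. At an unadjusted p under 0.05 edgeR counted only TFB1M, a mitochondrial rRNA methyltransferase, between the diets in round muscle. Of all genes it counted 4.41% and 3.91% between the diets and 11.2% between the muscles. TFB1M had 10.1 ± 1.01 CPM in the control and 15.0 ± 4.34 CPM in the treated calves (SD, n = 4). Its log2 fold change was 0.60 (SE 0.256, edgeR adjusted p = 0.864). The list medians were 0.06 in round and -0.12 in sirloin muscle.

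All 13 protein genes encoded by mitochondrial DNA had log2 fold changes below 0 between the diets in both muscles, with medians of -0.56 in round and -0.54 in sirloin muscle. Neither edgeR nor DESeq2 called any of them. At an unadjusted p under 0.05 edgeR counted 2 in round muscle and 9 in sirloin muscle, beside 4.41% and 3.91% of all genes. ND2, a complex I subunit, had means of 4814 ± 1275 CPM in the control and 2672 ± 629.5 CPM in the treated round muscle (SD, n = 4), a log2 fold change of -0.83 (SE 0.298, edgeR adjusted p = 0.864). ATP8, an ATP synthase subunit, had 2473 ± 1008 and 1188 ± 517 CPM in sirloin muscle, a log2 fold change of -1.07 (SE 0.355, edgeR adjusted p = 0.876).

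The 13 genes are cut from shared precursor transcripts and are not independent of each other. The sirloin count of 9 dropped to 2 and 4 when control replicates 2 and 3 were left out in turn, and to 3 without treated replicate 1 or 3. It was 12 without control replicate 1 or treated replicate 4, and all 13 were below 0 in each of these settings. The round count of 2 was 6 without control replicate 1 or treated replicate 3 and 1 without control replicate 4 or treated replicate 1, and in the last of these 1 of the 13 was above 0. Between the muscles the 13 also had log2 fold changes below 0 in sirloin relative to round muscle, with a median of -0.31. Of these, 5 were at an unadjusted p under 0.05, beside 11.2% of all genes, and 0 were called by edgeR or DESeq2.

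The genes most like PPARGC1A were ranked by Pearson's r of log2 CPM over the 16 libraries of 8 calves, after the 4 group means were removed, among 12314 other genes with a symbol and a mean of at least 1 CPM. The first was HSF2, a heat shock transcription factor, at r = 0.946, with 0.956 in round and 0.956 in sirloin muscle. DNAJB4, a heat shock protein of the HSP40 class, followed at 0.917 and PRKG1, the cGMP-dependent kinase, at 0.913. RSBN1 had 0.913, IGF2BP3, an RNA-binding protein, 0.890, ZNF566 0.888, PPP2CB, a catalytic subunit of protein phosphatase PP2A, 0.879, SLC5A6, a vitamin transporter, 0.877, CEMIP2 0.876 and LOC101906120 0.872.

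None of the 8 partners was among the 10 genes most like PPARGC1A. NRF1 ranked 839 (r = 0.622), PPRC1 1202 (0.570), ESRRB 2337 (0.427) and ESRRG 2781 (0.370). PERM1 ranked 3301 (0.308), ESRRA 4599 (0.157) and TFAM 6476 (-0.0583), and PPARGC1B ranked 11958 of 12314 with r = -0.729. The ranking is a description over libraries that share calves, depth and the deep control replicate 2.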

How the data were processed

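The authors deposited read counts per gene, whole numbers without normalization for 34109 NCBI gene IDs, and TPM values, normalized by the authors for gene length and depth, for 16 libraries of 8 calves. The study's methods describe rRNA and globin removal with a stranded kit, Trimmomatic, SortMeRNA, HISAT2 with Bowtie2, and StringTie. The submitters' processing notes instead list FastQC, Trimmomatic, STAR, featureCounts, DESeq2 and the build ARS-UCD1.2, and the labels state poly(A) selection. Which applies to the counts is not settled by the sources used here, so reads of overlapping genes on opposite strands may be mixed. Deposited comparison tables hold the authors' fold changes and p-values and were not used. Symbols came from the RefSeq table of ARS-UCD2.0, which matched 30762 IDs. In that annotation ESRRA overlaps TRMT112, TFAM overlaps ZNF239 and a lncRNA, and PERM1 overlaps PLEKHN1.

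Members and lists were chosen with earlier results of these data known, and 1 of 173 list entries had no matched row. Counts were tested with edgeR 4.0.16 (TMM, glmQLFit, glmQLFTest; R 4.3.3) on genes with at least 1 count in any library of the fit: 21677 in round, 21776 in sirloin and 22877 in both muscles. All tests were two-sided with Benjamini-Hochberg adjustment. SE was the log2 fold change divided by the square root of F. Fits over both muscles held a calf term, since the number marks a calf: deviations from group means correlated at 0.250 to 0.595 between the muscles of a calf and at most at 0.281 with another calf. Correlations used exact permutation in Python 3.11.15 with scipy 1.17.1. Alternatives were DESeq2 1.42.0, RLE and upper-quartile factors, filterByExpr, other blocks, a single fit, TPM (log2 of TPM + 1), a prior count of 0.5, calf means and leaving out each calf. The edgeR fits and the correlation test were tested on simulated data, where false calls of edgeR exceeded the nominal share in each fit with changed genes. The calves left out as farthest were chosen on diet-centred values. Named list genes passed a test or had 1 of the 3 largest absolute log2 fold changes of a list at a mean of at least 1 CPM, and the genes at an unadjusted p under 0.05 that are named also met this. Replicates are separate calves.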

Additional observations from a re-analysis of the deposited data

Results flagged for a closer look

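In 36 groups of 4 libraries (9 genes in 4 groups), 2 held a library far from the other 3 by Dixon's ratio of gap to range, and chance alone flags about 1 in 20 groups. PPARGC1B in control round replicate 2 was at 81.7 CPM against 7.82 to 14.0 CPM in the other 3 control round libraries. The same calf had the highest PPARGC1B of the control sirloin group, at 91.9 CPM, and the lowest PPARGC1A of the controls in each muscle. ESRRG in treated sirloin replicate 3 was at 30.1 CPM against 2.17 to 4.18 CPM in the other 3, and that calf was also the highest of the treated calves in round muscle, at 18.1 CPM. Neither value was tested further.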

How the results depend on the processing

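Counts of called genes moved most. Between the diets edgeR called 4 genes in round and 2 in sirloin muscle, DESeq2 called 45 and 13, a replicate block across the diets gave 2 and 0 (795 and 463 at an unadjusted p under 0.05), and leaving out each calf gave 0 to 3 and 0 to 1. Replicate numbers did not pair calves of different diets, with correlations of -0.154 to 0.188 for the same number and 2 of 8 control libraries closest to their own number. Between the muscles 122 genes were called, 14 with no replicate block, 829 by DESeq2 and 44 to 368 when a calf was left out, the highest without treated replicate 4. The interaction called 1 gene, 0 with no replicate block (637 unadjusted), 4 by DESeq2 and 0 to 2 when a calf was left out. PPARGC1A correlations past the threshold numbered 0 of 16, and 0 to 3 when a calf was left out. With no replicate block PPRC1 between the muscles was 0.0432. With calf means r for TFAM was -0.0800, and with TPM r in sirloin muscle was -0.0595 for ESRRA and -0.0703 for PERM1. Leaving out calves also turned the sign between the muscles for PPARGC1A (-0.0576 to 0.537), PPRC1 (-0.115 to 0.0891) and TFAM (-0.0548 to 0.100), and of r for ESRRA in round (-0.04 to 0.49) and sirloin muscle (-0.135 to 0.137), and in sirloin muscle for ESRRG (-0.311 to 0.511), NRF1 (-0.0340 to 0.795) and PERM1 (-0.285 to 0.351). The cause was not tested. Of the 270 alternative diet values of the 9 genes, only that of PPARGC1B without control replicate 2 moved by more than the spread between calves (1.70 against 0.40), and 269 by less. Leaving out 1 of 4 calves seldom moves a mean by that spread, so this count does not measure stability. ESRRG in sirloin muscle was among the 269, although its sign turned without control replicate 3. Depth limited ESRRB most, with 23 to 232 counts.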
